A study of Mus musculus with 8 samples.

Results

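The importers described here are 10 genes of the Slc39 family, which encode the ZIP zinc transporters: Slc39a4, Slc39a5, Slc39a6, Slc39a7, Slc39a8, Slc39a9, Slc39a10, Slc39a11, Slc39a13 and Slc39a14. They were chosen by name, though with earlier results of these data known, and are 10 of the 55414 genes in the count table. All 10 had enough counts for the test of zinc against water. The RNA came from Paneth cells (PCs), which secrete antimicrobial peptides from the crypt base, sorted from the small intestine of 8 mice of the C57BL/6J strain. Each library came from 1 mouse. For 7 days 4 mice drank Milli-Q water, meaning ultrapure water, and the other 4 drank water supplemented with 25 mM ZnSO4. All 8 mice, controls included, then received an injection of TNF, an inflammatory cytokine, and the cells were collected 3 hours later. No library from mice without TNF was analysed here, so what TNF itself did to these genes was not measured. The age of the mice and the TNF dose are not given in the labels.

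ZIP proteins move zinc into the cytosol, either across the plasma membrane or out of organelles and vesicles, whereas the ZnT proteins encoded by the Slc30 genes move it the opposite way. PCs hold much zinc in their secretory granules. The transcription factor MTF-1, encoded by Mtf1, senses cytosolic zinc and switches on the metallothioneins Mt1 and Mt2, which bind zinc, and the exporter gene Slc30a1, and it has also been tied to lower Slc39a10 when zinc is plentiful.

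The 8 libraries held 10623658 to 15101627 counts, of which the 10 importers together took 4012 to 8444. Levels within a gene are given below as CPM, counts normalised for library size after TMM scaling. The library zinc 3 stood apart. The summed level of 12 genes of the TNF and NF-kB response was 89.0 CPM there and 1234 to 1496 CPM in the other 7 libraries, with 11 of the 12 genes lowest in zinc 3, which goes against its label of a mouse given TNF. The library labelled zinc 3 also held the highest level of all 12 enterocyte markers, which summed to 580.0 CPM against 91.5 to 185 CPM in the other 7. None of those markers was at 0 in every library. The 8 PC markers summed to 407281 to 732402 CPM with Milli-Q water and to 389627 to 491603 CPM with zinc. The 10 immune and stromal markers summed to at most 0.655 CPM in any library, and 3 of them had no count at all. Goblet cell markers summed to 11351 to 16754 CPM with Milli-Q water and to 13014 to 16993 CPM with zinc. Stem cell markers summed to 211 to 392 CPM and to 211 to 764 CPM, and enteroendocrine and tuft cell markers to 1.72 to 13.0 CPM and to 2.02 to 16.5 CPM. The part of these other cells in the importer levels was not tested, and fewer cells of a type cannot be told apart from less RNA per cell in sorted bulk samples.

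Levels were first compared between the importers as TPM, in which counts are divided by exon length and each library is brought to the same total, over all 8 libraries. Slc39a11, a member of a separate branch of the family, was highest at 18.8 ± 3.60 TPM (SD, n = 8). It ranked 657 among the 10707 genes that passed the filter on low counts. Slc39a4, known for the uptake of dietary zinc at the apical membrane of enterocytes, followed at 10.1 ± 3.37 TPM. Next came Slc39a8, a plasma membrane carrier of zinc and manganese, at 8.82 ± 2.12 TPM, and Slc39a9, a transporter of the Golgi and plasma membrane, at 8.26 ± 2.11 TPM. Slc39a14, which carries zinc, iron and manganese, stood at 4.25 ± 0.946 TPM. The endoplasmic reticulum transporter Slc39a7 stood at 3.70 ± 1.04 TPM, a level made uncertain by a gene that overlaps it on the same strand, and the plasma membrane importer Slc39a10 at 2.87 ± 1.40 TPM. The lowest levels per length belonged to Slc39a5, a basolateral transporter of enterocytes, at 2.02 ± 1.15 TPM, to Slc39a13, a transporter of the Golgi and vesicles, at 1.39 ± 0.417 TPM, and to Slc39a6, the partner of Slc39a10 in a shared complex, at 0.739 ± 0.215 TPM, rank 7689 of the 10707 genes.

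Steps between neighbours in that order were tested by two-sided exact permutation with sign flips, in which the smallest p possible is 0.00781. The order came from the same 8 libraries that were tested. The p-values therefore describe the spread of each step and are no separate support for the order. Of the 9 steps, 3 were larger than their spread over libraries. Slc39a11 exceeded Slc39a4 by 0.93 ± 0.47 on the log2 scale (SD, n = 8), in 8 of 8 libraries, with an adjusted exact p of 0.0234. Slc39a9 exceeded Slc39a14 by 0.95 ± 0.33, also in 8 of 8 libraries with the same adjusted exact p, and so did Slc39a13 over Slc39a6, by 0.90. The other 6 neighbours did not differ beyond their spread. Slc39a4 was above Slc39a8 in 5 of 8 libraries (adjusted exact p 0.110), and Slc39a7 was above Slc39a10 in 6 of 8 (adjusted exact p 0.0703). With the longest transcript as the length in place of all exons, 5 of the 10 importers kept their place and Slc39a4 moved from the second to the fourth. The steps past the threshold then were those from Slc39a11 to Slc39a8 (adjusted exact p 0.0352), from Slc39a8 to Slc39a9 (adjusted exact p 0.0469) and from Slc39a14 to Slc39a7 (adjusted exact p 0.0352). Slc39a6 was then next to Slc39a5 and not below it beyond the spread (adjusted exact p 0.316). The step from Slc39a11 at the top to its neighbour passed with both lengths. With the longest transcript Slc39a9 was no longer next to Slc39a14, nor Slc39a13 next to Slc39a6, so those steps were not tested again.

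**Figure D1:**
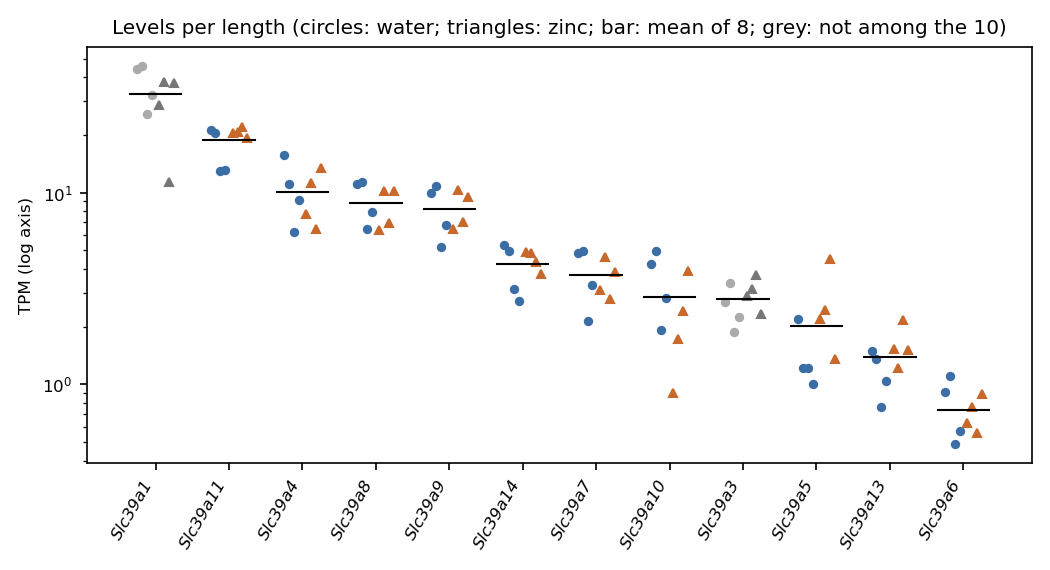
Level per length of the 10 importers in TPM on a log axis, with 1 point per library (circles, Milli-Q water; triangles, zinc), a bar for the mean of 8, and in grey Slc39a1 and Slc39a3, which are not among the 10. Of the 10, Slc39a11 sits highest with a mean of 18.8 TPM and Slc39a6 lowest with a mean of 0.739 TPM.

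The importer with the smallest p in the comparison of zinc with water was Slc39a10. Its level was 49.6, 55.5, 38.3 and 45.3 CPM in the Milli-Q water libraries 1 to 4 and 11.9, 18.8, 30.5 and 51.5 CPM in the zinc libraries 1 to 4. The libraries zinc 1, 2 and 3 lay below every Milli-Q water library, while zinc 4 lay among them. The sum of the 6 crypt stem cell markers had the opposite pattern in the same libraries. It was 764, 505 and 681 CPM in zinc 1, 2 and 3, 211 CPM in zinc 4 and 211 to 392 CPM with Milli-Q water. Most of the sum was Olfm4, at 639, 413 and 482 CPM in zinc 1, 2 and 3. Of the 6, 4 were above every Milli-Q water library in each of zinc 1 to 3, whereas Smoc2 and Tnfrsf19 were not, and 0 were at 0 in all libraries. The share of all genes with that pattern was not counted, and the part of these markers in the Slc39a10 levels was not tested. The means of Slc39a10 were 47.2 ± 7.26 CPM and 28.1 ± 17.3 CPM (SD, n = 4 each), so that the coefficient of variation was 15.4% with Milli-Q water and 61.5% with zinc. The log2 fold change, zinc over water, was -0.74 with an SE of 0.37 and a 95% interval from -1.55 to 0.06, and did not pass the threshold (edgeR adjusted p 0.491). Slc39a6, with which Slc39a10 is known to form a complex, was at 9.91, 11.4, 8.98 and 8.48 CPM with Milli-Q water and at 7.68, 7.75, 6.53 and 10.97 CPM with zinc. Again zinc 4 alone lay within the Milli-Q water libraries, and the log2 fold change was -0.24 (SE 0.20, edgeR adjusted p 0.618).

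The promoters of Slc39a10 are shown because this gene carried the largest difference between the group means on the log2 scale among the importers that were lower with zinc, beside a window of Slc39a8, an importer with a match, and that of Mt1, a textbook MTF-1 target, for comparison. The windows run from 250 bases before to 50 bases after a transcription start, 5′ to 3′ on the gene's strand, and come from RefSeq on the GRCm38.p6 build, which is not the build of the count table. Capitals mark a match to the core of the metal response element that MTF-1 binds, written TGCACNC or TGCGCNC and searched on both strands. The windows of Slc39a10 lie at chr1:46925727-46926026 and chr1:46853569-46853868, both on the minus strand, and have no match. The Slc39a8 window at chr3:135825407-135825706 on the plus strand has 1 match, on the opposite strand, and the Mt1 window at chr8:94178839-94179138 on the plus strand has 3.
Slc39a10 window 1: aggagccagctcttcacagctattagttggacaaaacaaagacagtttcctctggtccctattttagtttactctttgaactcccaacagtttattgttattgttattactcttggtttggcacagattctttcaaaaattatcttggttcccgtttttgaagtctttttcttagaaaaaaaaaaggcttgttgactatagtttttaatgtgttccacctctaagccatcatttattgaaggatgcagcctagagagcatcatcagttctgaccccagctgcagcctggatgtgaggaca
Slc39a10 window 2: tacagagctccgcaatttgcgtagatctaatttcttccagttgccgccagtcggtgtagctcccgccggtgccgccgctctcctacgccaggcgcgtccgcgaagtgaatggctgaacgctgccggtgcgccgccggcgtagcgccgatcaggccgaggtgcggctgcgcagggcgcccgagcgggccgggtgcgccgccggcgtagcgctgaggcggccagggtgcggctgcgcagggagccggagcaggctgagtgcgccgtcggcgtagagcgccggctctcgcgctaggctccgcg
Slc39a8 window 2: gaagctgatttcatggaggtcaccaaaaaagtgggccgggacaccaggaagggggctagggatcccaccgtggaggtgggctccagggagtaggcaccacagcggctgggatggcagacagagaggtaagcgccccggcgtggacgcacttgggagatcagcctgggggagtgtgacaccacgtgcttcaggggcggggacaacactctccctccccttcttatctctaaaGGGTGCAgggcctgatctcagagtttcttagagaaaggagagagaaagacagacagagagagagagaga
Mt1: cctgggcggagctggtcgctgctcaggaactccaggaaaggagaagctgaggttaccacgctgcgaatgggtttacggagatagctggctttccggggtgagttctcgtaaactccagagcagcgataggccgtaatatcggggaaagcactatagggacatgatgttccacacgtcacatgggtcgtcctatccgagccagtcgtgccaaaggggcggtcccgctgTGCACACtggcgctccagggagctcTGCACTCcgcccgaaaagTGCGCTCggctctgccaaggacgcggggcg

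Such a match is common, being present in 25.7% of the 32851 windows of all genes, and 7.11% held 2 or more. Of the 10 importers, 7 had windows that were taken, 11 in all. Of these windows 5 held a match, in Slc39a5, Slc39a8, Slc39a11 (2 windows) and Slc39a13. Beside the 3 matches of Mt1, the Mt2 window held 4 and those of Slc30a1 and Slc30a2 held 2 each. A match describes the letters of the window and is not a bound site, and the absence of one in 300 bases says nothing of sites elsewhere. Slc39a4 and Slc39a14 have no entry in the promoter table used here. Windows on chromosome 18, where Slc39a6 lies, were not taken for the named genes, so its promoter was not examined.

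Slc39a8 and Slc39a14 are the plasma membrane carriers known to respond to inflammatory signals in other cells. Slc39a8 was at 84.1, 82.1, 83.1 and 81.9 CPM with Milli-Q water and at 54.9, 72.5, 56.6 and 87.2 CPM with zinc. The Milli-Q water libraries were nearly equal, with a coefficient of variation of 1.2%, against 22.3% for zinc, where 3 libraries lay below and 1 above all of them. The log2 fold change was -0.29 (SE 0.17, 95% interval -0.66 to 0.08, edgeR adjusted p 0.520). Slc39a14 was at 61.6, 55.1, 61.5 and 43.2 CPM with Milli-Q water and at 64.6, 52.3, 54.1 and 49.7 CPM with zinc, so the groups lay on top of each other (log2 fold change -0.01, SE 0.16, 95% interval -0.35 to 0.34, edgeR adjusted p 0.991). In the library zinc 3, where the TNF and NF-kB response genes were low, Slc39a8 was at 56.6 CPM, above only zinc 1 at 54.9 CPM. Slc39a14 was at 54.1 CPM there, within the range of the other 7 libraries. The part of the TNF response in these levels was not tested.

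Slc39a4 and Slc39a5 are the importers best known from the intestinal epithelium, where they sit at opposite faces of the enterocyte. Slc39a4 was at 62.6, 42.0, 42.1 and 49.97 CPM with Milli-Q water and at 35.04, 42.0, 27.8 and 61.1 CPM with zinc. The means were 49.2 ± 9.68 CPM and 41.5 ± 14.3 CPM (SD, n = 4 each), and the log2 fold change of -0.25 had an SE of 0.24 (edgeR adjusted p 0.669). Slc39a5 was at 4.72, 2.50, 4.43 and 2.96 CPM with Milli-Q water and at 5.34, 4.95, 10.5 and 3.31 CPM with zinc, where 3 libraries lay above all Milli-Q water libraries. It had the largest log2 fold change upward, 0.74, with an SE of 0.37 and a 95% interval from -0.08 to 1.55 (edgeR adjusted p 0.491). Its highest value was in zinc 3, where 29.8% of all filtered genes and the enterocyte markers were highest as well. Without that library the log2 fold change was 0.33 (edgeR adjusted p 0.803). Slc39a4 was lowest in zinc 3, as were 30.0% of all filtered genes, and its log2 fold change without that library was -0.09. The part of enterocytes in the levels of either importer was not tested.

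The remaining members are Slc39a11 and the importers of the Golgi, endoplasmic reticulum and vesicles. Slc39a11 was at 146, 134, 152 and 123 CPM with Milli-Q water and at 159, 133, 163 and 150.1 CPM with zinc (log2 fold change 0.12, SE 0.14, edgeR adjusted p 0.730). It had the narrowest 95% interval of the 10 importers, from -0.19 to 0.43. Slc39a9 was at 98.5, 101, 87.1 and 91.1 CPM and at 71.9, 94.7, 74.8 and 106 CPM (log2 fold change -0.12, SE 0.16, edgeR adjusted p 0.761). The zinc values lay on both sides of the Milli-Q water values, as they did for Slc39a13. Slc39a7 was at 12.3, 12.1, 9.23 and 11.5 CPM with Milli-Q water and at 8.995, 11.05, 7.65 and 11.1 CPM with zinc (log2 fold change -0.22, SE 0.18, edgeR adjusted p 0.604). Slc39a13 was at 7.86, 6.73, 6.77 and 7.44 CPM with Milli-Q water and at 9.09, 5.95, 12.3 and 8.95 CPM with zinc (log2 fold change 0.33, SE 0.22, edgeR adjusted p 0.552). Like Slc39a5 it was highest in zinc 3, without which its log2 fold change was 0.15.

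**Figure D2:**
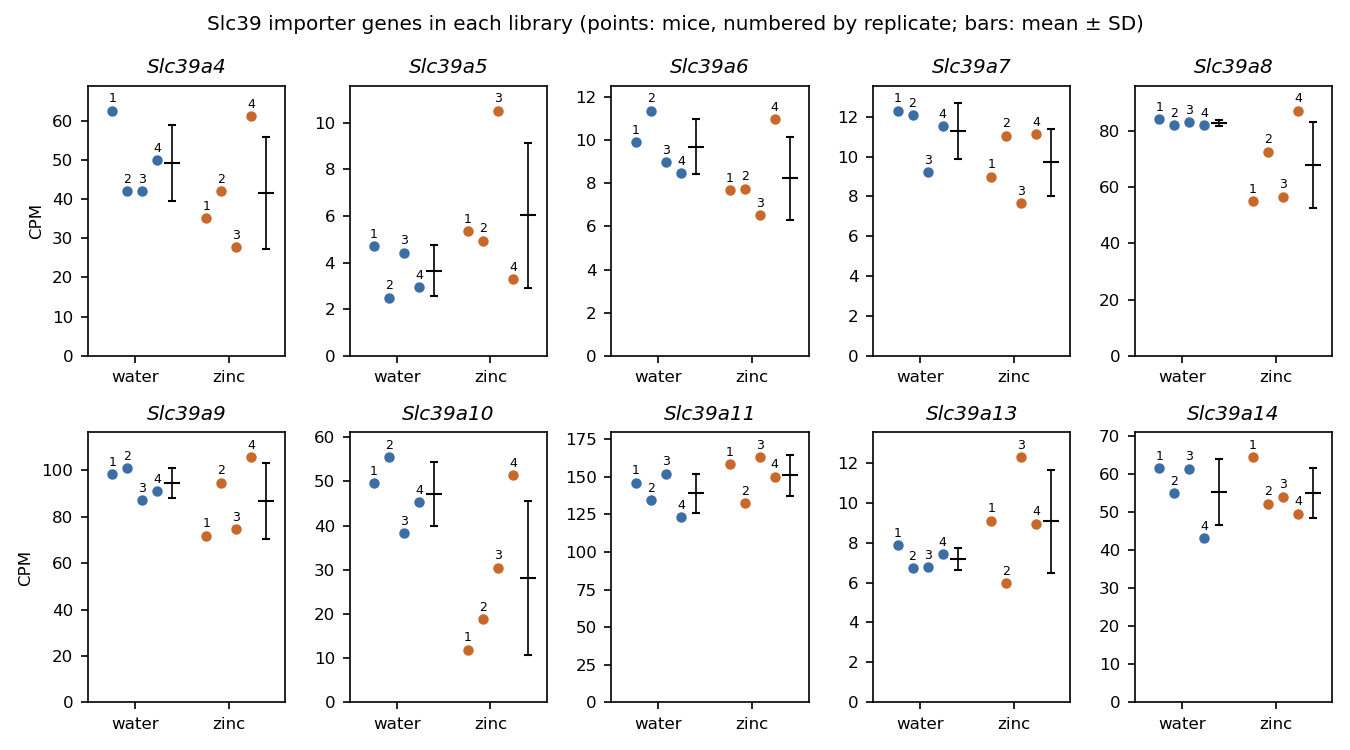
Level of each of the 10 importers in CPM in every library, 1 panel per gene, with Milli-Q water and zinc side by side, points numbered by replicate and bars for the mean ± SD of 4 mice. In Slc39a10 the zinc values run from 11.9 to 51.5 CPM, whereas those of Milli-Q water run from 38.3 to 55.5 CPM.

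Taking the 10 importers as a list, 0 passed the threshold by edgeR's quasi-likelihood test, where 0% of the 10707 genes tested did (0 genes, smallest adjusted p 0.485). At an unadjusted p under 0.05 there were 0 importers in either direction, against 6.42% of all genes higher and 3.78% lower with zinc. DESeq2 also called 0 importers, against 0.0657% of 12178 genes (8 genes), and gave 1 an unadjusted p under 0.05, Slc39a10, against 6.87% of 18720 genes. With limma-voom and sample weights, which gave zinc 3 a weight of 0.174 and the others 0.710 to 2.48, 0 were called and 2, Slc39a10 (log2 fold change -1.31) and Slc39a8 (-0.29), had an unadjusted p under 0.05, against 12.4% of all genes. By sign alone 3 importers were higher with zinc and 7 lower, beside 50.8% and 49.2% of all genes. The median log2 fold change of the importers was -0.17, that of all genes 0.01. The values of the groups overlapped for all 10 importers, where 2.76% of all genes were higher and 3.12% lower with no overlap. Nothing was therefore shown to differ for any importer, and the intervals still allow a log2 fold change of -1.55 for Slc39a10 and of 1.55 for Slc39a5. The p-values measure the spread between these 8 mice.

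**Figure D3:**
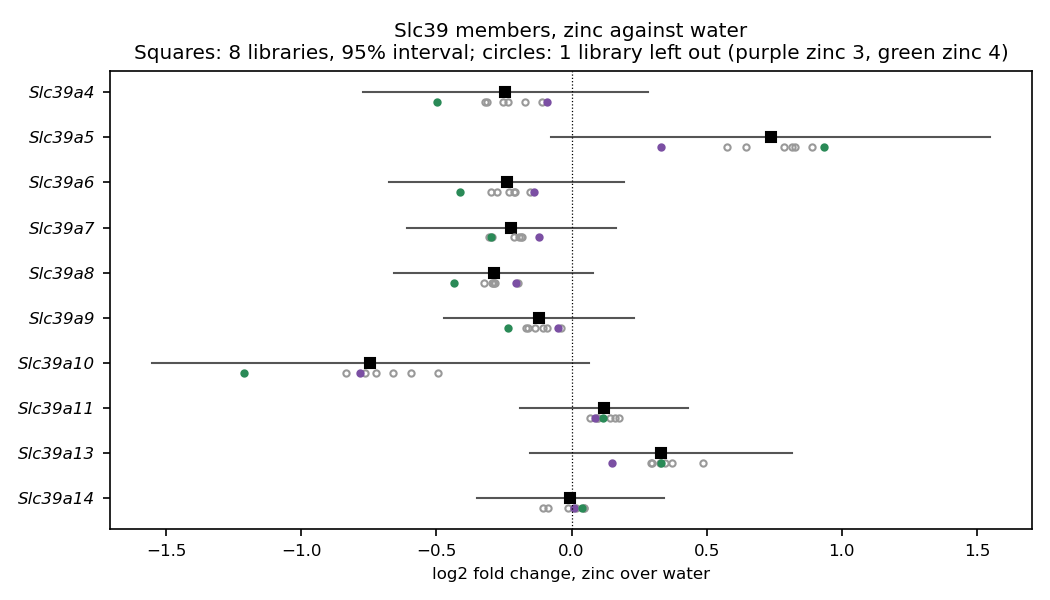
Log2 fold change, zinc over Milli-Q water, of the 10 importers, with squares for the fit on all 8 libraries, bars for the 95% interval and circles for the fits with 1 library left out (purple, zinc 3; green, zinc 4). Every bar of the 8-library fit crosses 0, and Slc39a10 at -0.74 and Slc39a5 at 0.74 lie farthest from it.

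How much the estimates rest on single libraries was seen by leaving out each in turn. Without zinc 4 the log2 fold change of Slc39a10 was -1.21 (SE 0.29, edgeR adjusted p 0.140), that of Slc39a8 -0.44 (edgeR adjusted p 0.221), that of Slc39a5 0.93 (edgeR adjusted p 0.225) and that of Slc39a4 -0.50 (edgeR adjusted p 0.252). In that fit 5 of the 10 importers and 1960 of 10924 genes had an unadjusted edgeR p under 0.05. With all 8 libraries these were 0 importers and 1092 of 10707 genes. No importer passed the adjusted threshold in any of these fits. Without zinc 3 the value for Slc39a10 was -0.78 (edgeR adjusted p 0.613) and the median of the importers was -0.07. Other libraries moved Slc39a10 towards 0, which was at -0.50 without zinc 1 (edgeR adjusted p 0.614), at -0.59 without zinc 2 and at -0.66 without Milli-Q water 2. With 1 library left out Slc39a4 ran from -0.50 to -0.09, with -0.11 without Milli-Q water 1 and -0.09 without zinc 3. Slc39a6 ran from -0.41 without zinc 4 to -0.14 without zinc 3, and Slc39a9 from -0.24 without zinc 4 to -0.04 without zinc 1. Slc39a7 was at -0.12 without zinc 3, and Slc39a11 at 0.07 without Milli-Q water 4. The libraries Milli-Q water 3 and 4 also differed from the rest, in that their deviations correlated negatively with transcript length (Spearman's rho across genes, which are not independent replicates, -0.282 and -0.293, against 0.00522 to 0.212 in the others), and without both of them Slc39a10 was at -0.91. With a length trend taken out of every library it was at -0.90 (edgeR adjusted p 0.496), and with those 2 and zinc 3 left out at -0.93 (edgeR adjusted p 0.896).

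The summed level of the 10 importers was 537, 503, 494 and 465 CPM in the Milli-Q water libraries and 428, 443, 444 and 539.7 CPM in the zinc libraries. The means were 499.8 ± 29.8 CPM and 463.5 ± 51.3 CPM (SD, n = 4 each), and the ranges overlapped. The sum amounted to 0.0374% to 0.0580% of the counts of a library. Over the whole family of 14 genes, Slc39a1, a broadly used plasma membrane importer that is not among the 10, held the largest mean share of the TPM, 33.5%, followed by Slc39a11 with 19.9%, Slc39a4 with 10.3%, Slc39a8 with 9.13% and Slc39a9 with 8.52%.

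Of the other 4 genes of the family, Slc39a1 was at 181.7, 180.2, 180.1 and 181.5 CPM with Milli-Q water and at 134, 146, 50.4 and 174 CPM with zinc. Its groups did not overlap, where 3.12% of all genes were lower with no overlap. The log2 fold change of -0.52 had an SE of 0.30 and did not pass the threshold (edgeR adjusted p 0.521), and without zinc 3 it was -0.25. Slc39a3, another plasma membrane importer, was at 2.78 TPM, and zinc over water gave 0.08 on the log2 scale (SE 0.16, edgeR adjusted p 0.841). Slc39a2 had 8 counts in all, each of them in a zinc library, and shares 500 exon bases with Mettl17 on the same strand. Slc39a12 had 0 counts, which allows a level of up to 0.179 to 0.369 CPM depending on the library, the worth of 3 counts; this covers counting error only.

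The other zinc genes were taken from a list of 19, namely the 4 other Slc39 genes, the 10 Slc30 exporters, 4 metallothioneins and Mtf1. Of these 13 had enough counts, 0 passed edgeR's threshold, and 6 were higher and 7 lower with zinc by sign, beside 50.8% and 49.2% of all genes. An unadjusted edgeR p under 0.05 was given to 3, Slc30a1, Slc30a2 and Mt2, all higher, where 6.42% of all genes were higher at that level. Slc30a1, the plasma membrane exporter, was at 0.410, 0.893, 0.492 and 0 CPM with Milli-Q water and at 4.78, 3.23, 1.96 and 0.484 CPM with zinc, and the edgeR estimate was 2.47 on the log2 scale (SE 0.79, adjusted p 0.485). Its zinc 4 value again lay within the Milli-Q water libraries. Slc30a2, a vesicle transporter, was at 85.5, 70.1, 65.1 and 74.8 CPM and at 123, 90.4, 104 and 94.7 CPM, with no overlap (log2 fold change 0.48, SE 0.15, edgeR adjusted p 0.485). Among all genes, 2.76% were higher with no overlap. Mt1 was at 41.0, 44.3, 68.2 and 36.0 CPM and at 254, 107, 29.5 and 45.0 CPM (log2 fold change 1.20, SE 0.56, edgeR adjusted p 0.485), and Mt2 at 6.50, 7.09, 22.9 and 4.00 CPM and at 172, 49.8, 8.35 and 4.03 CPM (2.57, SE 1.02, edgeR adjusted p 0.485). Both rested largely on zinc 1, without which Mt1 was at 0.36 and Mt2 at 1.09 on the log2 scale. Among the exporters, metallothioneins and Mtf1, the 2 of smallest p on the lower side were Slc30a9 and Slc30a4, each at -0.20 (SE 0.12 and 0.13, edgeR adjusted p 0.534 and 0.543).

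**Figure D4:**
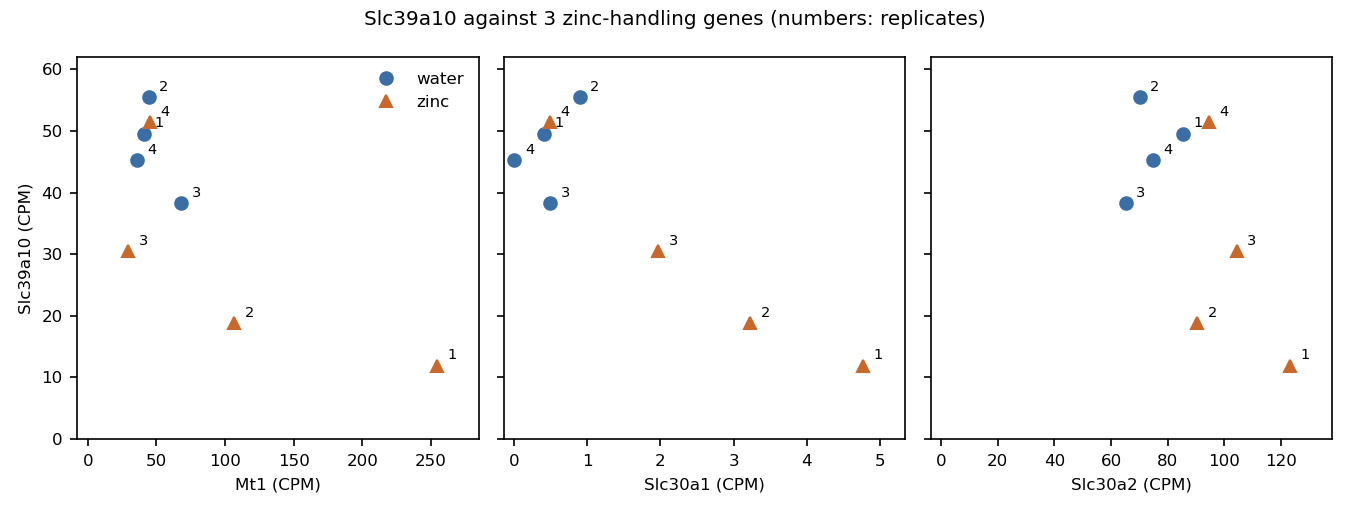
Level of Slc39a10 in CPM in the 8 libraries against the levels of Mt1, Slc30a1 and Slc30a2 in CPM, 1 panel per gene (circles, Milli-Q water; triangles, zinc), each point labelled with its replicate number. The libraries zinc 1 and zinc 2, with 254 and 107 CPM of Mt1, have the lowest Slc39a10 values, 11.9 and 18.8 CPM.

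Whether the importers moved together across mice was described by the correlation of log2(CPM + 1) over the 8 libraries. There were 55 relations, 45 between pairs of importers and 10 of an importer with Mt1. By an exact permutation test 0 passed the threshold after adjustment, and 20 had an unadjusted p under 0.05. That number was 13 without zinc 3, and 2 without the 2 libraries farthest from the median of 1 gene of the pair. The share among pairs of all genes was not counted. Over all 8 libraries 21 of the importer pairs were positive and 24 negative, with r from -0.82 to 0.90 and a median of -0.11. The highest was Slc39a8 with Slc39a9 (r = 0.904, exact permutation p 0.00967, adjusted 0.0832, Spearman's rho 0.786, exact p 0.0279, adjusted 0.140). It fell to r = 0.322 without zinc 1 and 3, the libraries farthest from the median of Slc39a8. Slc39a4 with Slc39a8 (r = 0.836, exact permutation p 0.00737, adjusted 0.0832, rho 0.881, exact p 0.00724) was at r = 0.757 without the 2 libraries farthest from the median of Slc39a4, Milli-Q water 1 and zinc 3. The most negative was Slc39a5 with Slc39a6 (r = -0.819, exact permutation p 0.00933, adjusted 0.0832, rho -0.833). It was at r = -0.476 without the 2 libraries farthest from the median of Slc39a5, Milli-Q water 2 and zinc 3, and at -0.677 without zinc 3.

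Slc39a10 correlated with Mt1 at r = -0.850 (exact permutation p 0.0149, adjusted 0.0832) and at rho = -0.429 (exact permutation p 0.299, adjusted 0.531). Without zinc 1 and zinc 2, the libraries farthest from the median of Slc39a10, r was 0.244, so the relation rests on those 2 libraries. Without zinc 3, r was -0.964 (exact permutation p 0.00456, adjusted 0.191). Slc39a10 with its partner Slc39a6 was at r = 0.694 (exact permutation p 0.0570, adjusted 0.149) and at rho = 0.905 (exact permutation p 0.00456, adjusted 0.140). The value was r = 0.824 without the 2 libraries farthest from the median of Slc39a6, Milli-Q water 2 and zinc 3. Zinc 1 and zinc 2, the farthest for Slc39a10, were kept there, so that relation was not tested without them. The groups were pooled in all of these correlations.

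**Figure D5:**
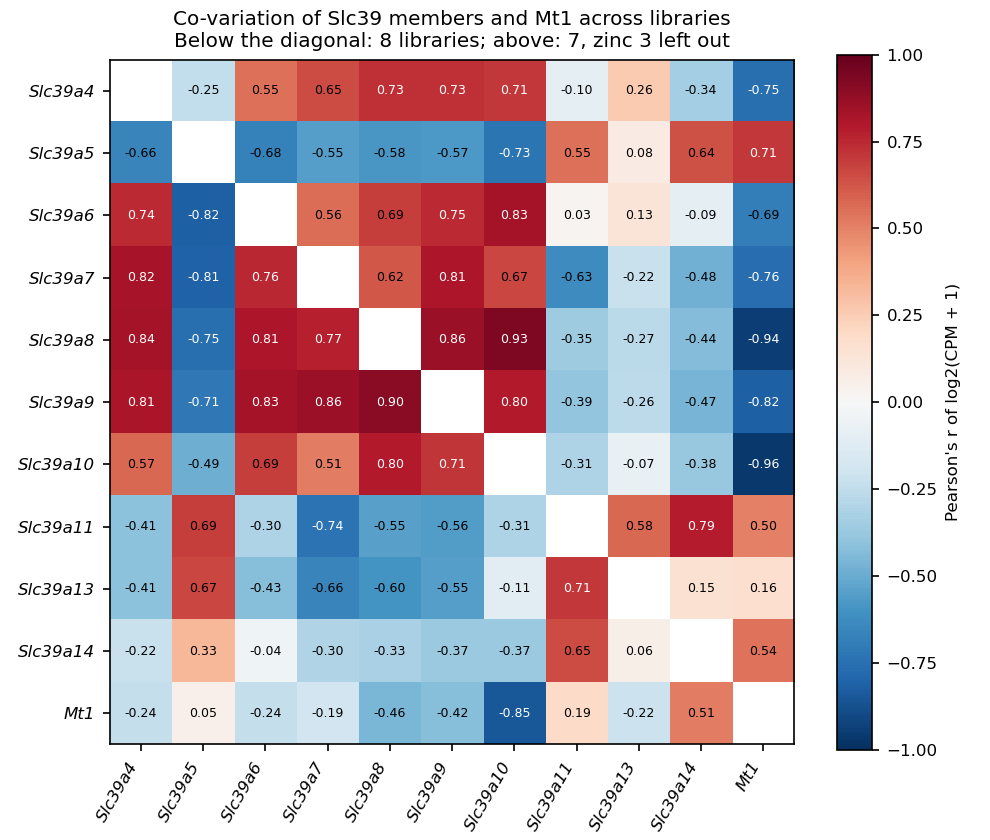
Correlations across the 8 libraries between the 10 importers and Mt1, as a coloured matrix with Pearson's r of log2(CPM + 1) below the diagonal and the same without the library zinc 3 above it. Values range from -0.82 to 0.90 between importers over all 8 libraries.

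As a description of likeness, the genes with the highest r to the 3 importers of highest TPM were listed over the 10707 filtered genes. These are the highest of 10707 values over only 8 libraries, with no test. Slc39a11 was most like Gpr179 (r = 0.956), Mbnl3 (0.935) and Ranbp6 (0.922), with mean levels of 4.84, 4.04 and 3.03 CPM. For Slc39a4 they included Rab3gap1 (0.973) and Prr14 (0.959), with mean levels of 45.7 and 30.1 CPM. Slc39a8 was most like Ift81 (0.979), Akr1b8 (0.977) and Nol8 (0.975), with mean levels of 3.61, 3.48 and 19.7 CPM. Without zinc 3, Gpr179 was still among the 3 genes most like Slc39a11, whereas Mbnl3 and Ranbp6 were not. Rab3gap1 and Prr14 were no longer among those of Slc39a4, and none of the 3 named for Slc39a8 was still among its own.

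Coordinates of the importers are on GRCm39, 1-based. Slc39a10 lies on chromosome 1 from 46845872 to 46964964, minus strand. Slc39a13 lies on chromosome 2 from 90892122 to 90900916, minus strand, and Slc39a8 on chromosome 3 from 135531040 to 135594333, plus strand. Slc39a5 lies on chromosome 10 from 128231799 to 128237121, Slc39a11 on chromosome 11 from 113134467 to 113541227, and Slc39a14 on chromosome 14 from 70540678 to 70588914, all on the minus strand. Slc39a9 lies on chromosome 12 from 80690657 to 80730116, plus strand. Slc39a4 lies on chromosome 15 from 76496580 to 76504172, Slc39a7 on chromosome 17 from 34247243 to 34250656, and Slc39a6 on chromosome 18 from 24711955 to 24736969, all on the minus strand. Some importers share exon bases with a gene on the opposite strand, 215 for Slc39a13 with Psmc3, 509 for Slc39a6 with Elp2, 340 for Slc39a11 with Cog1 and 459 for Slc39a9 with Erh. Psmc3 had 4940 counts against 842 of Slc39a13 and Elp2 had 1441 against 934 of Slc39a6, so the levels of these 2 importers are uncertain if counting ignored the strand, a setting not given in the sources used here. Slc39a7 shares 2084 of its 2661 exon bases with Gm20427 on the same strand, which had 2 counts, so reads that match both may have been dropped and the level of Slc39a7 is uncertain.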

How the data were processed

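RNA-seq libraries of sorted PCs from 8 mice, 4 per group, were grouped by their labels. The values deposited by the authors were raw counts for Ensembl genes in 1 table; the submitters' processing notes name FastQC 0.12.0, STAR 2.7.10a, DESeq2 and the build mm39, whereas the counter, its strand setting and the annotation release are not given in the sources used here. Libraries were made with a stranded mRNA kit. Of 55414 identifiers, 54749 matched GENCODE vM39. Zinc was compared with Milli-Q water on the counts by edgeR 4.0.16 (R 4.3.3; quasi-likelihood test, TMM, default filter, 10707 genes holding 99.9% of counts), with Benjamini-Hochberg adjustment over all genes and a threshold of 0.05; the biological coefficient of variation was 0.269. TPM used the union of exons. No 2 libraries agreed within sampling noise (smallest chi-square per degree of freedom 6.37 over 28 pairs). Correlations and orders were tested by exact permutation (scipy 1.17.1). The edgeR comparison was tested on simulated counts, whereas the order, correlation, promoter and outlier steps were not.

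Alternatives were DESeq2 1.42.0, limma 3.58.1 with voom and sample weights, scaling by the size factors of DESeq2, by upper quartiles or with the Defa genes taken out, a filter of 1 CPM in 4 libraries plus 100 counts or none, the replicate number as a block, and 1 or more libraries left out. The fits without both Milli-Q water 3 and 4 and zinc 3, and with a length trend, were chosen after seeing the data. The importers and the lists were chosen with earlier results of these data known. Always named were the 14 Slc39 genes, Mt1, Mt2 and Slc30a1, then, as none passed, the 2 exporters, metallothioneins or Mtf1 of smallest p in each direction, and the 3 genes most like each of the 3 highest importers, of which 1 gene is not reported here. Promoters were taken from RefSeq; protein sequences were not used here.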

Additional observations from a re-analysis of the deposited data

Results flagged for a closer look

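In 39 groups of 4 libraries searched, 2 held a sample far from the others by Dixon's criterion, about as many as the 1 in 20 that chance gives. The summed level of the 10 importers was 539.7 CPM in zinc 4, against 428 to 444 CPM in the other 3 zinc libraries. Mt2 was at 22.9 CPM in Milli-Q water 3, against 4.00 to 7.09 CPM in the other 3 Milli-Q water libraries.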

How the results depend on the processing

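No importer passed the threshold under any of the 19 alternatives, and of the 190 fold changes recomputed 182 kept their sign. The 8 that turned belonged to Slc39a13, at -0.0037 on the log2 scale with limma-voom and sample weights, and to Slc39a14, at 0.047 with upper-quartile factors and from -0.11 to 0.047 with 1 library left out. Slc39a3 ran from -0.033 to 0.16 with 1 library left out. The order by level had 6 neighbours past the threshold in CPM, which is not divided by length, against 3 in TPM. The order in CPM was a different one, with 3 of the 10 importers at the same place. There Slc39a4 came after Slc39a14, and Slc39a5 came last. Slc39a6 was above Slc39a13 in 6 of 8 libraries (adjusted exact p 0.430). Over all genes DESeq2 called 8 and edgeR 0. Genes with an unadjusted edgeR p under 0.05 numbered 1092 of 10707 in all 8 libraries. They were 1960 of 10924 without zinc 4 and 312 of 11213 without Milli-Q water 3 and 4.

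The replicate numbers are shared by the groups, but did not pair the samples: deviations of same-numbered libraries correlated at -0.02 to 0.03, and 0 of 8 libraries correlated best with its own number. With the number as a block, 0 genes and 0 importers were called. An unadjusted edgeR p under 0.05 was given to 802 of 10707 genes and to 2 of the 10 importers (Slc39a10 and Slc39a5). In that fit 4 importers were higher with zinc, and Slc39a14 was at 0.0021. Depth limits mainly Slc39a5, with 501 counts in 8 libraries.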

Other observations

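The library labelled zinc 3 held the lowest value of 3 importers (Slc39a4, Slc39a6 and Slc39a7) and the highest of 3 others (Slc39a5, Slc39a11 and Slc39a13). Over the 10707 genes, 30.0% were lowest and 29.8% highest in that library. Zinc 1 held the lowest value of Slc39a8, Slc39a9 and Slc39a10, beside 8.12% of all genes, and the highest of Slc39a14. Zinc 4 held the highest value of Slc39a8 and Slc39a9 and the lowest of no importer. Slc39a10 made up 3.45% of the TPM of the 14 family genes with Milli-Q water and 2.38% with zinc, and Slc39a5 1.44% and 3.04% (means over 4 libraries each, with no test). The share of Slc39a5 was 6.09% in zinc 3 and 2.55%, 2.25% and 1.26% in zinc 1, 2 and 4.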
